A study of Mus musculus with 6 samples.

Results

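Otx2, Zic2, Pou3f1, Sox3, Foxd3 and Fgf5 are genes that pluripotent cells of the mouse embryo use as they leave the ground state. They were read here in mouse embryonic stem (ES) cell clones on all 9 probe sets whose platform annotation gives 1 of these 6 symbols and no other. These are 9 of the 45037 probe sets tested, and 6 of the 18193 genes with such a probe set. Otx2, Zic2 and Foxd3 each had 1 probe set, and Pou3f1, Sox3 and Fgf5 each had a pair, of which the brighter by mean over all arrays is called the first.

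ES cells kept in LIF and serum are close to the epiblast before implantation, a state called naive. After implantation the epiblast passes through a formative to a primed state, in which it can answer the signals that start the germ layers. FGF signalling through ERK drives that step. Otx2, a homeobox protein, then guides Pou5f1 to new enhancers, and Zic2, a zinc finger protein, binds many enhancers of the primed state. Pou3f1 is a POU protein of the epiblast and of later neural and glial cells. Sox3 belongs to the same SOX group as Sox2 and marks the epiblast and the early neural plate. Foxd3 is a forkhead protein that pluripotent cells need and that later marks the neural crest. Fgf5 is a secreted FGF ligand and the classical marker of the epiblast after implantation.

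The arrays came from clones A1, A3 and A4 of the mouse ES line EBRTcH3, a derivative of E14. All clones carry the coding sequence of human WBSCR1 with a 3xFLAG tag at the ROSA26 locus, under a promoter that tetracycline keeps off. Mouse Eif4h, its counterpart, is a translation initiation factor. Control cells (0 h) grew with tetracycline and induced cells spent 24 h without it, on gelatin with LIF and serum in both groups. Each clone gave 1 control and 1 induced array on an Affymetrix whole-genome mouse chip, so there were 3 arrays per group and 2 per clone. The design cannot separate the transgene from the loss of tetracycline, since no array comes from cells without the transgene. Each clone is 1 derived line, so a difference between clones cannot be told apart from the culture history of that clone. Signals are RMA values on a log2 scale, in which 1 unit is a doubling. A signal is called dim in an array where it lies under the median of that array, and these medians ran from 5.11 to 5.19 log2. Signals of different probe sets are not on a common scale, so genes are compared only as differences between arrays.

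The ES cell markers Pou5f1 (12.83 to 12.93 log2), Sox2 (11.92 to 12.44), Nanog (12.15 to 12.40) and Zfp42 (12.60 to 12.78) were bright in all 6 arrays. The 6 probe sets for mouse Eif4h gave induced minus control differences of -0.27 to 0.074 log2. None was called. The transgene is a human coding sequence without untranslated regions, and whether these mouse probe sets read it was not tested. These values therefore do not show whether the transgene was induced. The paper reports RT-PCR time courses of induction for clones A1, A3 and A4. It gives 24 h as the time of maximal expression, and those measurements were not used here. The probes for the 3′ and 5′ ends of Gapdh differed by -0.0073 to 0.10 log2 over the arrays. For Actb the same difference was 0.29 and 0.32 log2 in the A3 arrays and 0.40 to 0.45 log2 in the others. The control for 18S ribosomal RNA was less even. It read 6.61 and 7.27 log2 in the A3 control and induced arrays and 5.66 to 7.03 log2 in the others. The part of these controls in the clone differences below was not tested. Clone A3 stood apart from A1 and A4 across the array. In the test of A3 against the mean of A1 and A4, 1752 probe sets were higher (3.89% of those tested) and 2557 lower (5.68%) at an adjusted p of 0.05. Earlier results of these data had set A3 apart, so this contrast was not chosen independently of them.

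Otx2 carried the strongest clone difference among these genes, and its promoters are shown first. RefSeq gives Otx2, on the minus strand of chromosome 14 (build GRCm38.p6), 4 start sites in the table used here. The 250 bases before each start were searched on both strands for TAATCC (the core bound by Otx2 and its relatives), ATGCAAAT (the POU octamer), ACAAAG (a SOX core) and TATAAA (the TATA element). Of 32851 such windows over all genes, 6.25% held the OTX core, 1.6% the octamer, 16.5% the SOX core and 12.4% the TATA element. The third Otx2 window, chr14:48665110-48665359, held GGATTA, the OTX core read on the other strand, with its first base at -211 from the start (in capitals). The first window held TATAAA at -192, and the other windows of Otx2 and that of Foxd3 held none of these motifs. No window was available for Zic2, Pou3f1 or Sox3, so these genes were not searched. The window of Fgf5, chr5:98253934-98254183 on the plus strand, held ACAAAG at -27 (in capitals). That of Zic5, chr14:122465659-122465908 on the minus strand, is shown because Zic5 lies next to Zic2 and moved with it. It held no match, as did that of Cldn6. These matches describe letters and say nothing of binding.
Otx2 start 3: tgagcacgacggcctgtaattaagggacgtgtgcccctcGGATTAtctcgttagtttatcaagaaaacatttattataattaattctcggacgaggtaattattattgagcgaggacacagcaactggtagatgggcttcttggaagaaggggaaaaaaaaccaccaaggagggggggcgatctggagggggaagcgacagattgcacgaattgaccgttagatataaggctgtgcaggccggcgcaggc
Fgf5: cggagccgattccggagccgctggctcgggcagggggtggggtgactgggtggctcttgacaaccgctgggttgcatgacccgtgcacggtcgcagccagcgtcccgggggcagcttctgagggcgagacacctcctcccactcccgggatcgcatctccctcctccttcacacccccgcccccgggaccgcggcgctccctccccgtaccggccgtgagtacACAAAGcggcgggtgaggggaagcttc
Zic5: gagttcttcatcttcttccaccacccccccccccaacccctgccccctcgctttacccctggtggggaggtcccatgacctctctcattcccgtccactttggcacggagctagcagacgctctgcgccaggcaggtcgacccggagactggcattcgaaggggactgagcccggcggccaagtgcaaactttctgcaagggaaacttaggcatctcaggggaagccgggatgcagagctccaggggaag

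Otx2 was higher in clone A3 than in either other clone. The A1, A3 and A4 control arrays read 5.16, 8.85 and 6.18 log2, and the induced arrays read 5.62, 8.46 and 6.17 log2. Both A3 arrays lay above the other 4, with a gap of 2.28 log2 to the nearest. No array was dim, though A1 control read just above its array median of 5.15 log2. A3 was 2.88 ± 0.16 log2 (SE, 2 against 4 arrays) above the mean of A1 and A4, a 7.35-fold difference with a 95% interval of 2.50 to 3.25 log2 and an adjusted p of 0.000164 in limma. By size of this difference the probe set ranked 17 of 45037, and the gene 9 of 18193. The difference ran from 2.48 to 3.27 log2 over the alternatives tried, and all of them kept the call. Within the pair of like clones, A1 read 0.78 ± 0.19 log2 below A4. This had an unadjusted p of 0.00333 and an adjusted p of 1, so it was not called.

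Zic2 was also higher in A3. Its control arrays of A1, A3 and A4 read 5.20, 6.69 and 5.17 log2, and its induced arrays 4.92, 6.10 and 5.42 log2. Both A3 arrays lay above the other 4, with a gap of 0.68 log2, while the A1 and A4 arrays sat about the array median and 2 of them (A4 control and A1 induced) were dim. A3 stood 1.22 ± 0.16 log2 above the mean of the other clones (2.32-fold, interval 0.84 to 1.59, adjusted p = 0.00441 in limma). It ranked 262 of 45037. A1 and A4 differed by -0.24 ± 0.19 log2, which was not called. Single arrays or clones left out gave 0.93 to 1.50 log2, and the call held in each such fit. With A4 control and A1 induced left out together, a choice made after seeing the data, Zic2 was at 1.08 log2 with an adjusted p of 0.0896 and was no longer called.

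**Figure D1:**
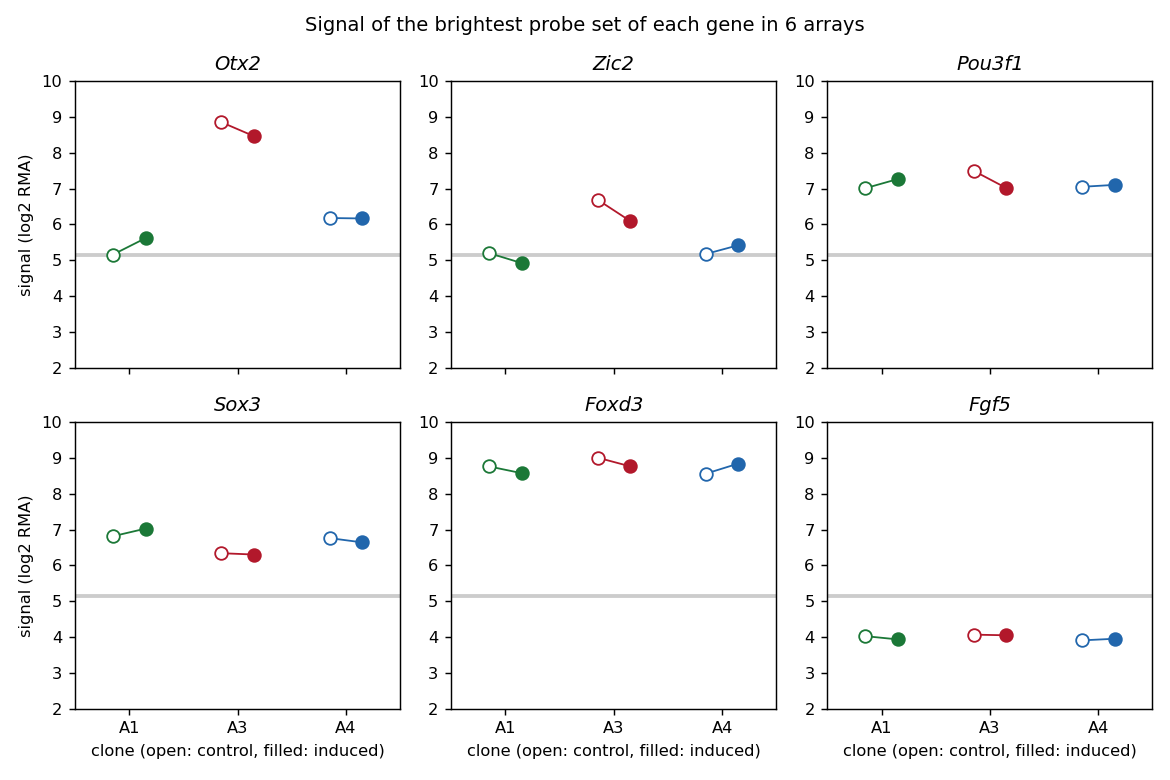
Signal (log2 RMA, vertical axis) of the first probe set of each of the 6 genes in clones A1, A3 and A4, with control arrays as open and induced arrays as filled circles joined within a clone. The grey line is the median of the arrays. Both Otx2 signals of A3 (8.46 and 8.85) and both Zic2 signals (6.10 and 6.69) stand above the other clones, the Sox3 signals of A3 (6.30 and 6.34) stand below, and all Fgf5 signals lie under the grey line.

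Sox3, which shares targets with Sox2, went the other way on its first probe set. Control arrays of A1, A3 and A4 gave 6.82, 6.34 and 6.76 log2, and induced arrays 7.03, 6.30 and 6.64 log2. Both A3 arrays were below the other 4, by at least 0.30 log2. A3 was 0.49 ± 0.11 log2 lower (1.40-fold, interval -0.74 to -0.24, adjusted p = 0.0308 in limma). Of the 3 calls in A3 this one was lost most often. It ended without the A3 control, A4 control, A1 induced or A3 induced array, and without clone A1, with adjusted p from 0.0966 to 0.219, and with A4 control and A1 induced left out together (0.114). The second Sox3 probe set did not show it. It read 5.57, 5.22 and 5.55 log2 in the control arrays and 5.63, 5.60 and 5.21 log2 in the induced arrays, so that A3 overlapped the others at -0.084 ± 0.15 log2 (adjusted p = 0.784).

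Pou3f1 was clearly measured in every array and not called in any comparison. The first probe set gave 7.01, 7.50 and 7.05 log2 in the control arrays of A1, A3 and A4 and 7.26, 7.02 and 7.10 log2 in the induced arrays. Its highest value was the A3 control array, while the A3 induced array was among the lower ones. The difference of A3 was 0.15 ± 0.15 log2 (interval -0.20 to 0.50, adjusted p = 0.602), and it turned to -0.17 without that A3 control array. On the second probe set all arrays lay between 7.01 and 7.21 log2. Both A3 arrays were at the top, with a difference of 0.14 ± 0.097 log2 and an adjusted p of 0.416.

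Foxd3 varied little. The A1, A3 and A4 cells gave 8.76, 9.01 and 8.56 log2 as controls and 8.57, 8.77 and 8.84 log2 when induced. The clones overlapped, and A3 differed by 0.20 ± 0.13 log2 (interval -0.10 to 0.51, adjusted p = 0.397). The interval excludes a difference as large as that of Zic2.

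Fgf5 was dim in all 6 arrays on both probe sets. The first read 4.03, 4.07 and 3.91 log2 in the control arrays of A1, A3 and A4 and 3.94, 4.05 and 3.95 log2 in the induced arrays. The second read 3.13, 3.28 and 3.08 log2 and then 3.14, 3.23 and 3.08 log2. Both A3 arrays were the highest on either probe set, but the spread over all arrays was 0.16 and 0.20 log2 and no fold is given at such signals. Neither was called (adjusted p = 0.574 and 0.404). Both Fgf5 probe sets were thus dim in the A3 arrays too, where the Otx2 signal was higher than in A1 and A4. A dim signal does not give the level of a transcript, and the state of clone A3 was not tested.

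Read together, 3 of the 9 probe sets were called in A3 against A1 and A4. Of these, 2 were higher, where 3.89% of all probe sets were, and 1 was lower, where 5.68% were. Both A3 arrays lay above the other 4 on 5 of the 9, against 19.8% of all probe sets, and below them on 1 of the 9, against 16.6%. The 5 were Otx2, Zic2, the second Pou3f1 probe set and both of Fgf5, which were dim in all 6 arrays. The gap was only 0.096 log2 for Pou3f1 and 0.024 and 0.084 log2 for Fgf5. In the F test over the 3 clones, which asks whether any clone differs, Otx2 (adjusted p = 0.000465) and Zic2 (0.0130) were called and Sox3 was not (0.0688). That is 2 of 9, where 5.54% of all probe sets were called. This count dropped to 1 without the A1 control, the A3 control or the A1 induced array, and to 0 without clone A3. Between A1 and A4, 0 of the 9 were called, where 0.0178% of all probe sets (8) were, and 1 (Otx2) had an unadjusted p under 0.05.

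**Figure D2:**
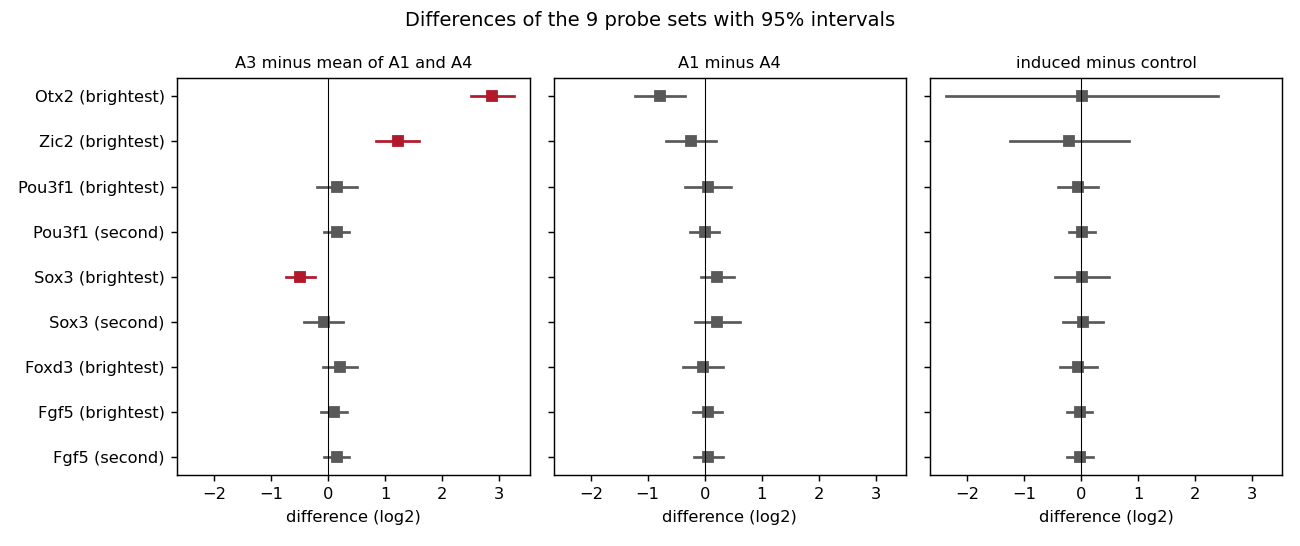
Difference in log2 signal with its 95% interval for each of the 9 probe sets, for A3 minus the mean of A1 and A4 (left), A1 minus A4 (middle) and induced minus control (right). Red marks an adjusted p under 0.05. Red points stand only in the left panel, for Otx2 (2.88), Zic2 (1.22) and the first Sox3 probe set (-0.49).

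None of these genes passed the test of induced against control arrays. Induced and control arrays overlapped on 9 of 9 probe sets, and 0 of 9 were called in limma or had an unadjusted p under 0.05. Over all probe sets 0% were called, 676 had an unadjusted p under 0.05, and the smallest adjusted p was 0.999942. This fit had no clone term, so differences between clones stayed in its error. With clone as a block in limma, 1539 of all probe sets had an unadjusted p under 0.05 and 0 were called. Otx2 read 6.73 ± 1.91 log2 in control and 6.75 ± 1.51 in induced arrays (SD, n = 3), and Zic2 5.69 ± 0.87 and 5.48 ± 0.59. The first probe sets of Pou3f1 (7.18 ± 0.27 and 7.13 ± 0.13), Sox3 (6.64 ± 0.26 and 6.66 ± 0.36), Foxd3 (8.78 ± 0.22 and 8.73 ± 0.14) and Fgf5 (4.00 ± 0.083 and 3.98 ± 0.062) varied less. Otx2 differed by 0.019 ± 1.03 log2 (SE, 3 against 3 arrays, interval -2.37 to 2.41), an interval widened by the gap between clones. Within A1, A3 and A4, induced minus control was 0.46, -0.39 and -0.012 log2 for Otx2. The signs differed between clones here and for the other transcription factors. Zic2 gave -0.28, -0.59 and 0.25 log2, and Pou3f1 gave 0.26, -0.48 and 0.054 log2. For 7 of the 9 probe sets, all but Otx2 and Zic2, the 95% interval from the fit without a clone term lay within 1 log2 of 0. With clone as a block the error of Otx2 narrowed to 0.15 log2 and that of Zic2 to 0.15 log2, and neither was called.

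Across the 6 arrays the signal of Zic2 followed that of Otx2 (Pearson r = 0.945), and Sox3 ran opposite to both (r = -0.919 with Otx2 and -0.924 with Zic2). Pou3f1 followed Otx2 less closely (r = 0.463), and Foxd3 lay between (r = 0.619). These are descriptions over 6 arrays of 3 clones that share their medium and handling, and the A3 pair carries most of the range. Among 936 other probe sets that were bright and varied by at least 1 log2, the pattern of Otx2 was most like that of St8sia1 (r = 0.999), Mageb16 (r = 0.996) and Pnma5 (r = 0.996). The pattern of Zic2 was most like that of Miip (r = 0.992), Cmklr1 (r = 0.984) and Ddx19b (r = 0.975). As these genes were picked for that likeness, A3 was the high clone in each of the 6, by 0.91 to 1.25 log2.

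Zic2 lay in a stretch of genes that were higher in A3. RefSeq puts Zic2 near the distal end of chromosome 14, beside its relative Zic5. Zic5 read 7.15, 9.39 and 7.32 log2 in the control arrays of A1, A3 and A4 and 7.63, 8.997 and 7.56 log2 in the induced arrays, and was 1.78 ± 0.17 log2 higher in A3 (adjusted p = 0.00127 in limma), a call that 3 of its 3 probe sets shared. Both A3 arrays of Zic5 stood well above the other 4. The next measured genes on the other side, Pcca, a subunit of a mitochondrial carboxylase, and Ggact, were 1.06 ± 0.10 and 0.80 ± 0.097 log2 higher. Among genes not dim in any array, all 18 from Tgds to the end of the chromosome had a positive difference in A3, with a median of 0.87 log2 and a range of 0.26 to 1.78, and 15 of them were called higher. Without Zic5 the median was 0.86 log2 and the highest 1.20 log2, beside 1.22 log2 for Zic2 itself. Between A1 and A4 the median over the 18 genes was 0.040 log2. Proximal to them lay a run of the opposite sign. From Bin3 to Spry2, 47 of 68 genes were called lower in A3 and 0 higher, with a median of -0.71 log2. The limits of both runs were drawn after their values were seen. Of all 11207 genes not dim in any array 6.45% were called higher and 9% lower. How much of the Zic2 difference goes with its neighbours was not tested.

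The surroundings of Otx2, on the same chromosome, showed no such run. The 278 genes before Bin3, which include Otx2, had a median of 0.0012 log2, with 17 called higher and 16 lower. Of the 20 nearest genes not dim in any array, 10 on either side, 2 were called higher and 1 lower, with a median of -0.026 log2 and a highest value of 0.58 log2. Otx2 stood at 2.88 log2 among them. Otx2os1, the antisense transcript beside it, was dim in all 6 arrays. The nearest 20 genes had medians of -0.015 log2 around Pou3f1, 0.044 around Sox3, 0.11 around Foxd3 and -0.12 around Fgf5.

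**Figure D3:**
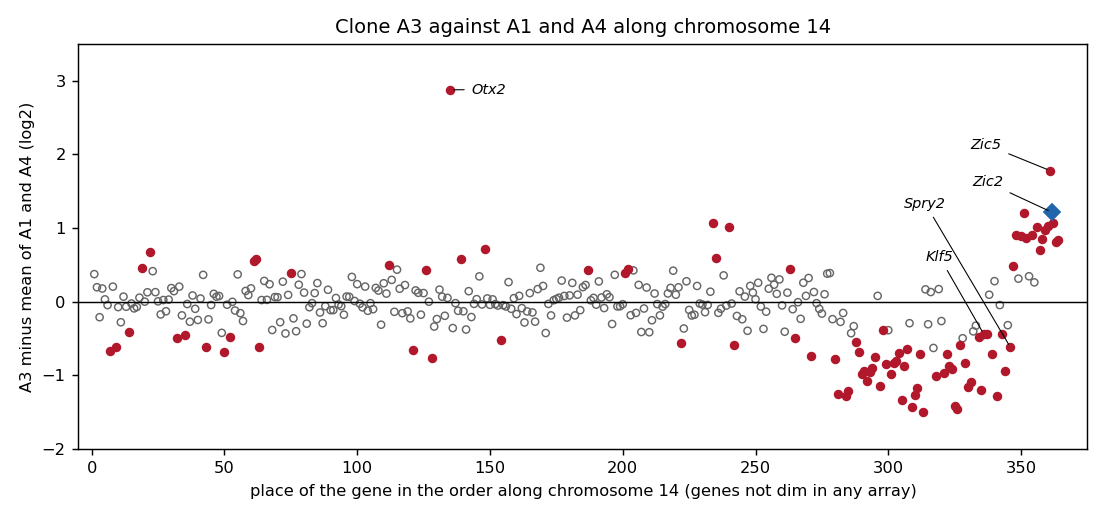
Difference of clone A3 from the mean of A1 and A4 (log2, vertical axis) for the 364 genes of chromosome 14 that were not dim in any array, in RefSeq order (horizontal axis), with called genes in red and other genes open. Zic2, dim in 2 arrays, is added as a blue diamond at 1.22. The 18 distal genes around Zic2 lie above 0, the 68 genes before them mostly below, and Otx2 (2.88) stands alone among genes near 0.

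The other genes of the primed and formative epiblast were mixed. Of 20 read here, 7 were called higher and 1 lower in A3 against A1 and A4, with a median of 0.17 log2. Over all 18193 genes 5.13% were called higher and 6.32% lower, with a median of 0.038 log2. Fgf8 and Lin28b were dim in all arrays, and the median of the other 18 was 0.36 log2. Of all genes not dim in any array, 6.45% were called higher and 9% lower. Cldn6, a claudin of early epithelia, had the largest difference at 1.87 ± 0.11 log2 (adjusted p = 0.000164 in limma). The inhibitors of Nodal signalling Lefty1 (1.38 ± 0.099) and Lefty2 (0.74 ± 0.12), the cadherin Cdh2 (1.25 ± 0.17), the ligand Fgf15 (0.65 ± 0.12) and Sall2 (0.60 ± 0.13, dim in 5 arrays) were also called higher, besides Zic5. Etv4, an ETS factor downstream of FGF and ERK, was called lower by 1.07 ± 0.11 log2, on 2 of 2 probe sets. The brightest members, Tdgf1 (-0.12) and Utf1 (-0.038, and -0.42 to 0.21 over its 3 probe sets), did not pass. Nodal (-0.019), Dnmt3a (0.0096) and Dnmt3b (0.33) did not pass either. Lists here were chosen with earlier results of these data known, and their counts are descriptions.

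The naive genes did not move as a block. Of 15, 2 were called higher and 3 lower in A3 (13.3% and 20%, beside 5.13% and 6.32% of all genes), with a median of -0.12 log2. These 15 were not dim in any array, and of all genes not dim in any array 6.45% were called higher and 9% lower. Gbx2 (-1.16 ± 0.11), Klf4 (-0.51) and Klf5 (-0.44, on 2 of 3 probe sets) were lower, while the germ cell and naive marker Dppa3 (1.05 ± 0.097) and the adhesion molecule Pecam1 (0.61) were higher. Klf5 lies in the lower run of chromosome 14. Nanog (-0.12), Esrrb (-0.45, adjusted p = 0.0504 in limma) and Zfp42 (0.0047) did not pass. None of the 3 core genes was called, with Pou5f1 at -0.012 and Sox2 at 0.038 log2.

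Of 15 paralogues of the 6 genes with a probe set, only Zic5 was called in A3, and 8 were dim in all arrays. Otx1, Zic1, Zic4, Pou3f3 and Foxd1 were among the dim ones. Fgf4, the FGF ligand that ES cells themselves secrete, was bright in all arrays and gave 0.016 ± 0.098 log2 on its brightest probe set. Over its 4 probe sets the difference ran from -0.011 to 0.34 log2. Among 13 FGF receptors and feedback genes of ERK, 3 were called lower (Etv4, Spred1 at -0.70 and Spry2 at -0.62) and 1 higher (Fgfr2 at 0.47), with a median of -0.25 log2. That is 23.1% lower and 7.69% higher, where 6.32% and 5.13% of all genes were, and 9% and 6.45% of genes not dim in any array. The calls stood on 6 of 8 probe sets for Spred1, 1 of 2 for Spry2 and 2 of 3 for Fgfr2. Spry2, an inhibitor of receptor signalling, is the last gene of the lower run of chromosome 14. Etv5 (-0.17), Spred2 (-0.25) and Dusp6 (-0.33) did not pass on their brightest probe sets. Others ranged up to 0.30 for Etv5 and down to -0.58 for Spred2, where 1 of 5 was called lower. In the induction test no gene of any of the 11 lists was called.

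**Figure D4:**
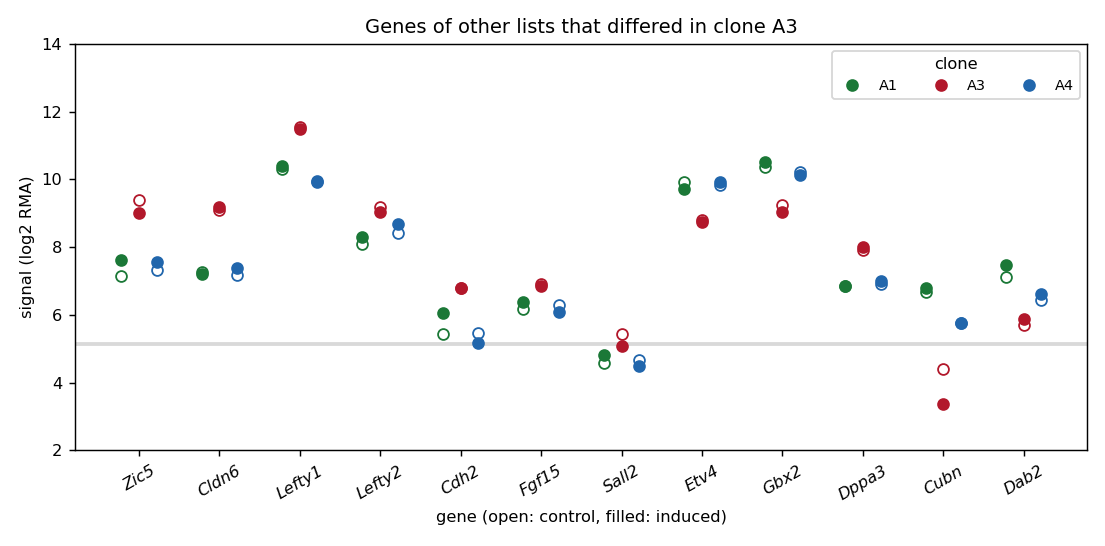
Signal (log2 RMA, vertical axis) of 12 genes from other lists in each array, by clone colour, with control arrays open and induced arrays filled. The grey line is the median of the arrays. Both A3 arrays are the highest for Zic5, Cldn6, Lefty1, Lefty2, Cdh2, Fgf15, Sall2 and Dppa3 and the lowest for Etv4, Gbx2, Cubn and Dab2.

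Markers of other cell types were checked, because Otx2 is also used in visceral endoderm and anterior neural tissue. Primitive and visceral endoderm markers moved with the clone but in the opposite direction to Otx2. Of 11, 7 (63.6%, beside 6.32% of all genes) were called lower in A3 and 0 higher, with a median of -0.73 log2, and the mean over the list was 4.86 and 4.87 log2 in the A3 arrays and 5.39 to 5.82 log2 in the others. The receptor gene Cubn (-2.35 ± 0.22), its partner Amn (-1.22), the adaptor Dab2 (-1.12), Sox7 (-0.83), Gata4 (-0.76), Gata6 (-0.73) and Pdgfra (-0.44) were lower. Cubn was dim in both A3 arrays, and Dab2 was called on 2 of 4 probe sets. Sox7, Gata4 and Gata6 were each dim in 2 arrays, and Pdgfra in 5. Pdgfra averaged 4.41 log2 in A3, near the 4.54 of A4, and 5.15 in A1. Over the list A1 minus A4 had a median of 0.33 log2, beside 0.010 over all genes, and no gene of the list was called there. Foxa2 and Afp were dim in all arrays, and Hnf4a gave -0.11 log2. Amn itself lies among lower genes on chromosome 12, where 16 of its nearest 20 were called lower (median -0.80 log2). In bulk RNA fewer cells of a type and less RNA per cell cannot be told apart, and the part of this list in the differences of Otx2, Zic2 and Sox3 was not tested.

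The remaining lists had 2 or fewer genes called each, where 6.32% of all genes were called lower and 5.13% higher. Of 11 neural progenitor markers 2 (18.2%) were called lower (Ncam1 at -0.54 and Map2 at -0.54) and 0 higher, and 5 were dim in all arrays. The call held on 4 of 7 probe sets of Ncam1 and 1 of 4 of Map2, which was dim in 5 arrays and reached 0.11 log2 on another probe set. Of 8 neural crest markers, read because of Foxd3, 2 (25%) were called lower (Twist1 at -1.01, dim in 3 arrays, and Snai2 at -0.52, dim in 4 and called on 1 of 2 probe sets) and 0 higher. None of 8 primitive streak and mesoderm markers was called, and 6 of them, Mixl1 and Gsc included, were dim in all arrays. Trophectoderm had 1 of 7 (14.3%) called higher (Ascl2 at 0.84, on 1 of 3 probe sets) and 4 dim in all arrays. None of 7 fibroblast markers was called, and 6 were dim in all arrays.

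**Figure D5:**
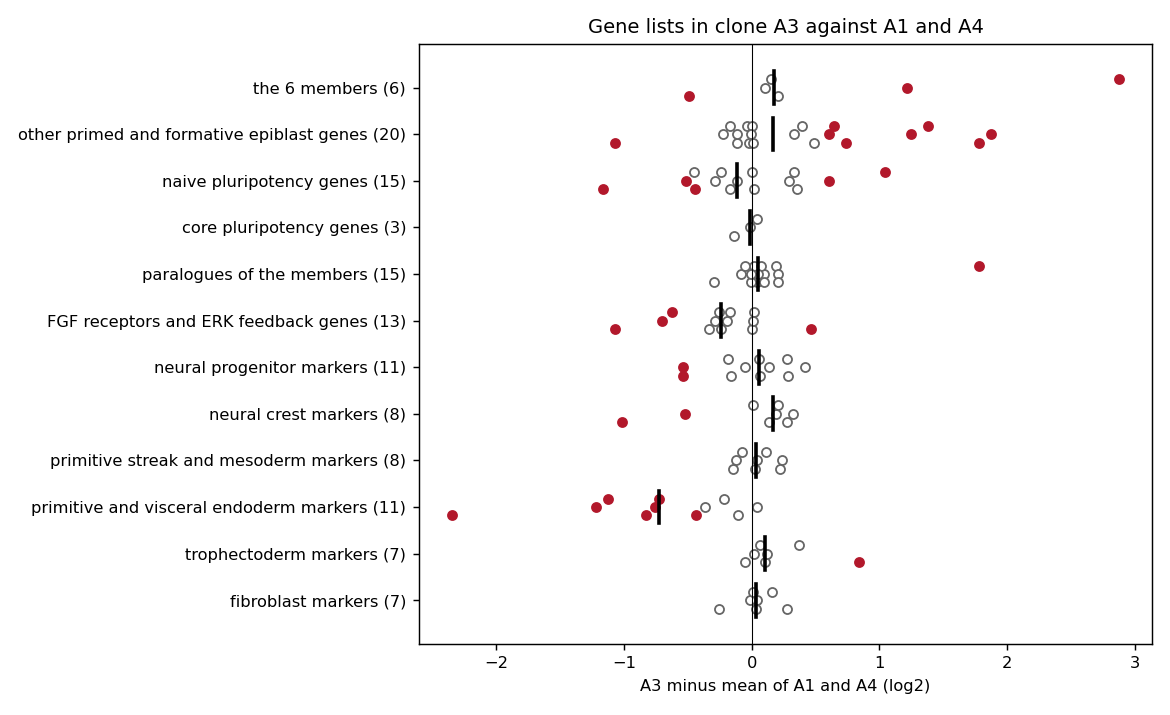
Difference of A3 from the mean of A1 and A4 (log2, horizontal axis) for the measured genes of each list, 1 point per gene, with called genes in red, others open and the list median as a black bar. The number measured is in brackets. The median is -0.73 for the endoderm markers and between -0.25 and 0.17 for the 10 other lists below the members, beside 0.038 over all genes.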

How the data were processed

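Microarrays of 6 RNA samples were analysed, 3 control and 3 induced, grouped by their titles. The deposited values are log2 signals that the authors computed by RMA with the Bioconductor affy package (versions not given in the sources used here), which corrects background, quantile-normalizes and summarises probes. Depth has no meaning for arrays, and their number limits the precision. The labels do not say whether both arrays of a clone came from separate cultures, so p-values between clones may measure technical spread only. Of 45101 probe sets 64 Affymetrix controls were left out, and of 45037 tested 34945 had 1 symbol, 932 several and 9160 none.

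Linear models were fitted in limma 3.58.1 (R 4.3.3; lmFit, then eBayes), two-sided, with Benjamini-Hochberg adjustment over all probe sets. Induced and control arrays were compared with no other term, after the methods' t-test, and clones with condition as a covariate. Replicate numbers mark clones, so they pair arrays (deviations of the arrays of A1, A3 and A4 correlated at 0.313, 0.670 and 0.290 over probe sets, but A1 and A4 reached 0.348 and 0.369 with an array of another clone). A gene was read first on its probe set with the highest mean. Other genes named were, per list, the 2 brightest and the 3 called in A3 with the largest difference each way, and for likeness the 3 genes of highest r (mean of at least 6 log2). Further list genes, neighbours on chromosomes and the runs on chromosome 14 were named after their values were seen. Members, lists and the contrast of A3 with A1 and A4 were chosen with earlier results of these data known. Alternatives were other filters, scalings, thresholds and fits, the clone block, and arrays or clones left out. Promoter windows came from RefSeq (GRCm38.p6), whose table also gave gene order. Scripts were tested on simulated data with 50 probe sets changed at each size. The contrast of A3 with A1 and A4 recovered 6% of changes of 0.5 log2 and 88% of 1 log2. A1 against A4 recovered 2% and 64%, so differences of these sizes can go uncalled. Plots were drawn with matplotlib 3.10.9.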

Additional observations from a re-analysis of the deposited data

How the results depend on the processing

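Of the 4 counts of called probe sets, those of induction (0) and of A1 against A4 (0) stayed at 0 under every alternative, among them the replicate block by clone, with 0 called, and the methods' t-test, with 0 called. The block left 1539 of all probe sets at an unadjusted p under 0.05 and changed no call. The count over clones (2) ran from 0 to 3 over fits that left out an array or clone, and was 0 with A4 control and A1 induced left out together, a choice made after seeing the data. The A3 count (3) was 2 or 3 in fits that left out an array or clone and 1 with both arrays left out (without clone A3 it could not be fitted). Otx2 and Zic2 kept their sign in A3 in all alternatives, and so did Sox3, Foxd3 and Fgf5. Uncalled differences near 0 changed sign. With arrays or clones left out, induction ran from -0.84 to 1.08 log2 for Otx2, -0.52 to 0.29 for Zic2, -0.21 to 0.15 for Pou3f1, -0.17 to 0.20 for Sox3, -0.22 to 0.066 for Foxd3 and -0.067 to 0.014 for Fgf5. The A3 difference of Pou3f1 ran from -0.17 to 0.47. A1 minus A4 ran from -0.58 to 0.10 for Zic2, -0.17 to 0.30 for Pou3f1, -0.28 to 0.21 for Foxd3 and -0.0027 to 0.10 for Fgf5. Induction of Sox3 was -0.012 after a second quantile normalization and -0.11 with both arrays left out, and A1 minus A4 of Pou3f1 was then -0.094. Induction of Fgf5 was 0.0034 with array medians subtracted, 0.0076 after a second quantile normalization and 0.010 after cyclic loess. The induction fits, apart from the clone block, had no clone term, so without a single array the groups no longer held the same clones. The cause of these changes was not tested. Arrays per clone (2) limit the test, and dim signals (Fgf5, and Zic2 in 2 arrays) carry little information on levels.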
